A study of Homo sapiens with 12 samples.

Results

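Gene expression in vehicle was compared between HCC70 and MDA-MB-231, established human lines from breast cancers, over all genes of a deposited table of read counts. The members are every gene of that table, 51838 in all, and 6 of the 12 libraries: those whose labels give ethanol as the treatment, 3 for each line. Both groups had received the ethanol in which the study's steroid was dissolved, for 4 h. The other 6 libraries came from cells given dexamethasone, since the study asked which genes the glucocorticoid receptor and STAT3 regulate, and they were not used. HCC70 was grown in RPMI medium with fetal bovine serum, HEPES, sodium pyruvate and glucose. MDA-MB-231 was grown in DMEM with fetal bovine serum, sodium pyruvate and non-essential amino acids. The effect of the line and that of its medium cannot be told apart. Each cell type is represented by 1 line, and the labels do not say whether its 3 libraries came from separate cultures, so that p-values measure only the spread between these libraries, which may be technical.

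Epithelial cells are joined to their neighbours by adherens junctions built on E-cadherin, by tight junctions built on claudins and by desmosomes anchored to keratin filaments. Mesenchymal cells lack most of these contacts, carry vimentin filaments and lay down a collagen-rich matrix. The transcription factors of the ZEB and SNAIL families repress epithelial genes through E-box sequences, and the miR-200 family of microRNAs targets the ZEB transcripts in turn. Breast cancers called basal-like carry keratins of the outer, basal layer of the mammary duct and have little oestrogen receptor, and those called claudin-low have lost much of the junctional programme.

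Total counts per library ran from 106345287 to 121063086. Levels are given as CPM, counts per 1000000, scaled between libraries by the trimmed mean of M-values (TMM), as mean ± SD over the 3 libraries of a line. Within a line the libraries correlated at 0.990 to 0.994 in log2 CPM across genes, which are not independent replicates, and between the lines at 0.775 to 0.781. Libraries of a line differed in base composition. In MDA-MB-231 library 1, the deviation from the line's mean was correlated with the GC content of the gene at 0.75 (Spearman), against -0.46 and -0.62 in the other two. In HCC70 the values were -0.56, 0.14 and 0.39 for libraries 1 to 3. Mitochondrial transcripts took 4.42% to 4.81% of the counts in HCC70 and 2.83% to 4.37% in MDA-MB-231, and ribosomal protein genes 1.42% to 1.56% and 2.19% to 2.5%; the part of these shares in the results was not tested. Of 27038 genes tested with edgeR's quasi-likelihood test, 10466 (38.7%) were higher in HCC70 and 10772 (39.8%) were higher in MDA-MB-231 at an adjusted p under 0.05, that is 78.5% of them. Since most genes then count as different, the calls below rest on a stricter test from the same fit, which asks whether the fold exceeds 2. It was passed by 5479 genes (20.3%) higher in HCC70 and 5089 (18.8%) higher in MDA-MB-231, together 39.1%. Counts of list members given below are to be read against these shares. "Higher" without another remark means past this 2-fold test, and the adjusted p-values printed are those of edgeR for it. The median log2 fold change, HCC70 over MDA-MB-231, was -0.036 over all tested genes. A count of 3 over a line's 3 libraries, the limit that a count of 0 allows, is 0.00870 CPM in HCC70 and 0.00843 CPM in MDA-MB-231, and folds against a line with no count are lower bounds from it that cover counting error only.

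Epithelial markers were high in HCC70 and low in MDA-MB-231. CDH1, the gene of E-cadherin, stood at 539, 522 and 497 CPM in the HCC70 libraries and at 2.06, 2.86 and 2.03 CPM in those of MDA-MB-231, 224-fold apart (log2 7.81 ± 0.16 SE, adjusted p = 3.89e-11). ESRP1, a splicing factor of epithelial cells, had 193 ± 5.96 CPM in HCC70 and 4 counts in all in MDA-MB-231. EPCAM, CLDN3, CLDN4, CLDN7, GRHL2 and OVOL2 were 6.42-, 13.5-, 3.38-, 20.8-, 1457- and 5.77-fold higher in HCC70. All 8 of these markers were higher in HCC70 with no overlap of the libraries, but CLDN4 still reached 255 ± 37.2 CPM in MDA-MB-231.

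The 6 mesenchymal markers were all higher in MDA-MB-231. VIM, which encodes vimentin, had 2168, 2214 and 2362 CPM there and 148, 166 and 122 CPM in HCC70, a 15.4-fold difference (adjusted p = 1.46e-09). ZEB1 had 49.3 ± 6.4 against 0.375 ± 0.0428 CPM. The receptor tyrosine kinase AXL had 1879 ± 352 CPM in MDA-MB-231 and 17 counts in the 3 HCC70 libraries together. The mesenchymal cadherin CDH2 was low in MDA-MB-231 at 2.32 ± 0.324 CPM and without a count in HCC70, at least 267-fold lower. FN1, fibronectin, was abundant in both lines at 257 ± 13.8 and 609 ± 99.6 CPM. Its 2-fold call was lost under 6 of 19 alternative fits. These were DESeq2, limma voom, a replicate term and leaving out HCC70 replicate 2 or 3 or MDA-MB-231 replicate 2. SPARC was low in both, at 0.0377 ± 0.0199 CPM in HCC70 and 0.511 ± 0.157 CPM in MDA-MB-231. High vimentin, AXL and ZEB1 thus stood beside little N-cadherin and SPARC.

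The labels call both lines basal-like, and the basal markers separated them. KRT5, the main basal keratin, had 2609.9 ± 131 CPM in HCC70 and 0.818 ± 0.452 CPM in MDA-MB-231. KRT14 and KRT17 had 87.2 and 0.243 CPM and 255 and 1.3 CPM in that order, and CDH3, the P-cadherin of basal cells, had 652 and 0.421 CPM. FOXC1 was 3.59-fold higher in HCC70 and TP63 4.14-fold, the latter at only 1.38 ± 0.276 CPM. EGFR was the exception: its libraries held 324, 326 and 341 CPM in HCC70 and 342, 376 and 368 CPM in MDA-MB-231, and the difference did not pass either test (adjusted p = 0.145 for any difference). The basal keratins that define the labelled class were thus at or under 1.3 CPM in MDA-MB-231. Of the hormone-related markers, ESR1 had 3.97 and 0.0724 CPM and PGR had 0 and 6 counts, while ERBB2 had 196 and 107 CPM. TFF1, a further one, did not pass the 2-fold test (adjusted p = 0.175). Without HCC70 replicate 2, TFF1 passed it as higher in MDA-MB-231 (log2 fold change -1.74, adjusted p = 0.0117).

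**Figure D1:**
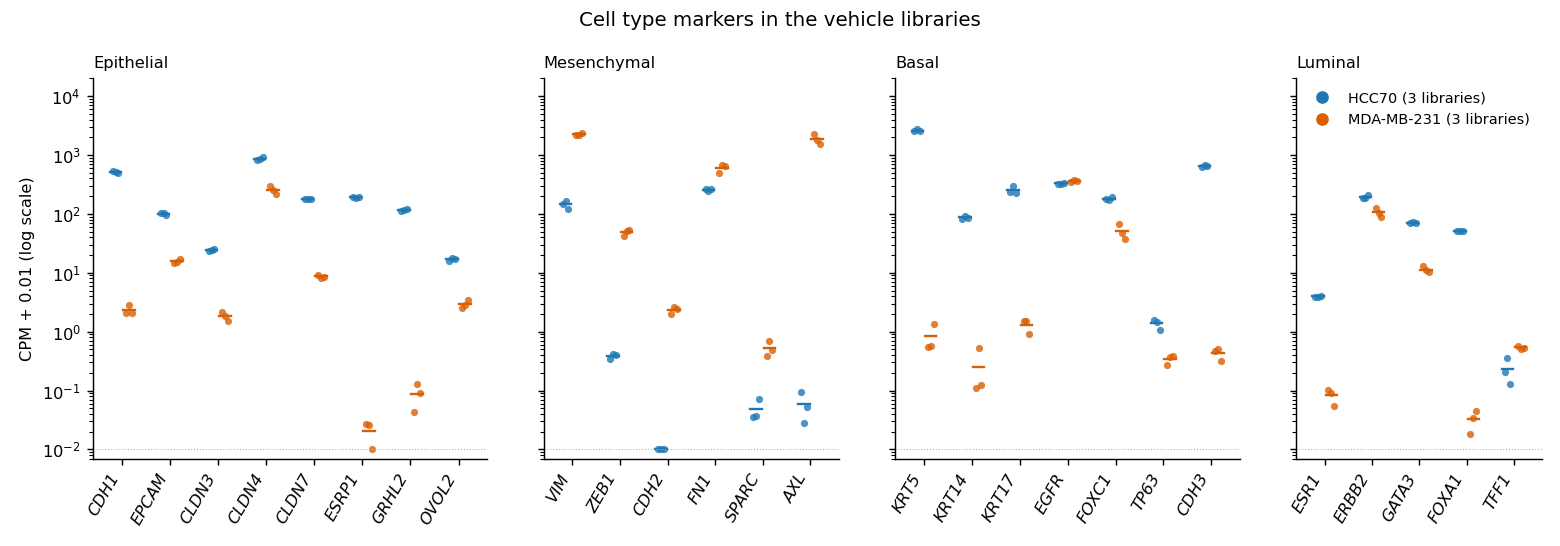
Level of each marker in each of the 6 vehicle libraries (points) with the mean of each line (bars), as CPM plus 0.01 on a log axis; the dotted line is a count of 0. The epithelial and basal markers lie higher in HCC70, apart from EGFR, and the mesenchymal markers lie higher in MDA-MB-231.

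The defining markers of other cell types were at or near 0 in both lines. PTPRC, the leukocyte antigen CD45, had 0.0493 and 0.189 CPM in HCC70 and MDA-MB-231, CD3E had 17 and 6 counts, LYZ 2 and 34 counts and MS4A1 none. The endothelial genes VWF and CDH5 had 0.421 and 0.284 CPM and 23 and 10 counts, and the adipocyte gene ADIPOQ had 2 and 16 counts. The white blood cell list summed to 41.9 to 43.3 CPM in HCC70 and 7.61 to 8.48 CPM in MDA-MB-231, of which CD14 made up 36.6 and 0.763 CPM. The endothelial list summed to 9.0 to 10.4 and 90.2 to 101 CPM, nearly all of it ESAM with 9.05 and 90.8 CPM. In bulk RNA, fewer cells of a type and less RNA per cell cannot be told apart.

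Of 28 adherens and tight junction genes tested, 19 were higher in HCC70 and 0 in MDA-MB-231, against 20.3% and 18.8% of all tested genes, and the list's median log2 fold change was 2.82. Several encode cell-surface proteins. PVRL4 (nectin 4) had 106 ± 5.31 against 0.0222 ± 0.0258 CPM, MARVELD3 25.5 ± 1.08 against 0.0557 ± 0.0232 CPM and CLDN1 66.4 ± 3.3 against 1.95 ± 0.298 CPM, while CLDN8 had 8.08 ± 0.36 CPM in HCC70 and no count in MDA-MB-231. The tight junction adaptors TJP3 and CGN (cingulin) were 165- and 33.6-fold higher in HCC70. The intracellular adaptors shared with other cell types differed little: CTNNB1, β-catenin, had 310.5 and 359 CPM, CTNNA1, α-catenin, 438 and 566 CPM, and TJP1 (ZO-1) 135 and 131 CPM. None of these 3 passed the 2-fold test, and CTNNB1 and CTNNA1 were slightly higher in MDA-MB-231 at an adjusted p of 0.0343 and 0.00163 for any difference.

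Desmosome genes were also mostly higher in HCC70. Of 13 tested, 11 were higher in HCC70 and 0 in MDA-MB-231 (median log2 fold change 2.90). The desmosomal cadherin DSG3 had 35.4, 33.7 and 31.6 CPM in HCC70 and no count in MDA-MB-231, at least 3987-fold lower, and DSC3 had 146 ± 3.04 CPM against 7 counts in all. The plaque protein PKP1 had 349 ± 6.84 against 0.174 ± 0.0315 CPM. JUP (plakoglobin) and DSP (desmoplakin), which link the cadherins to keratin, were 11.8- and 4.06-fold higher in HCC70 but still reached 132 ± 29.7 and 225 ± 15.8 CPM in MDA-MB-231. PKP2 was the only tested member with a higher mean in MDA-MB-231, at 37.8 and 46.7 CPM, and did not pass the 2-fold test.

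Of 21 keratin genes tested, 15 were higher in HCC70 and 1, KRT80, in MDA-MB-231 (median log2 fold change 4.28). The keratins of stratified and stressed epithelia included the following: KRT16 had 483 ± 27.2 against 0.202 ± 0.261 CPM, KRT23 25.8 ± 1.37 against 0.0447 ± 0.0349 CPM and KRT4 90.3 ± 2.0 against 0.512 ± 0.357 CPM. The near-identical copies KRT6A, KRT6B and KRT6C, between which reads can be split, were 73.1-, 143- and 67-fold higher. KRT19 was higher in HCC70 at 2257 and 394 CPM. The simple-epithelium pair KRT8 and KRT18 did not pass the 2-fold test and differed in opposite directions, with 1170.4 and 831 CPM for KRT8 and 437 and 717 CPM for KRT18, so that both were present in each line. KRT80 had 48, 50.1 and 49.9 CPM in HCC70 and 346, 294 and 268 CPM in MDA-MB-231.

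Of 16 hemidesmosome and laminin genes, 1 was higher in HCC70 and 5 in MDA-MB-231, against 20.3% and 18.8% of all tested genes. Both directions together made up 37.5% of the list, close to the 39.1% of all tested genes, and its median log2 fold change was -0.72. ITGA6, the α chain of the hemidesmosome integrin, had 63.5 ± 1.92 CPM in HCC70 and 469 ± 58.1 CPM in MDA-MB-231, and COL17A1, the hemidesmosome collagen, 1.97 ± 0.119 and 38.8 ± 3.91 CPM. LAMB1 was 6.24-fold higher in MDA-MB-231. LAMA5 and LAMB3, with 1227 and 1005 CPM and 432 and 538 CPM, did not pass either test.

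Regulators of the epithelial state were mostly higher in HCC70: 23 of 28 tested, with 1 higher in MDA-MB-231 and a median log2 fold change of 4.04. The small GTPase RAB25 had 94.2, 89.9 and 95.7 CPM in HCC70 and 6 counts in all in MDA-MB-231. The transcription factors ELF3 and GRHL1 were 67.3- and 53.2-fold higher, and ST14 (matriptase) and PRSS8 (prostasin), membrane proteases of epithelia, 67.4- and 555-fold. FOXA1 and GATA3, factors of the luminal lineage, were also higher, with 51.4 and 0.0227 CPM and 70.3 and 11.3 CPM. ESRP2, the paralogue of ESRP1, differed less, with 125 and 36.3 CPM. SPDEF was the member higher in MDA-MB-231, at 36.8 ± 8.31 against 2.29 ± 0.207 CPM, and EHF and KLF4 did not pass the 2-fold test.

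Regulators of mesenchymal transition were split: 9 of 15 tested were higher in MDA-MB-231 and 3 in HCC70, with a median log2 fold change of -2.12. HMGA2, a chromatin protein, had 37.5, 38.5 and 43.5 CPM in MDA-MB-231 and no count in HCC70, at least 4582-fold lower. ZEB2 had 7.99 ± 0.558 against 0.103 ± 0.0448 CPM and FOSL1 (FRA-1) 343 ± 11.9 against 2.73 ± 0.378 CPM. SNAI2 (SLUG) was 4.66-fold higher in MDA-MB-231, at 5.59 and 26 CPM in HCC70 and MDA-MB-231. SNAI1 (SNAIL) went the other way, with 10.6, 12.4 and 10.6 CPM in HCC70 and 1.61, 1.57 and 1.2 CPM in MDA-MB-231 (adjusted p = 7.54e-08). TWIST1, TWIST2 and GSC had no count in any of the 6 libraries. ZEB1, ZEB2 and SNAI2 were thus higher in the mesenchymal-like line, and SNAI1 in the epithelial one.

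Several microRNA loci held reads mostly of one line. They were picked after their counts were seen, and the reads come from polyA RNA lying over the hairpin, that is from the primary or host transcript, not from the mature microRNA. The mature sequences show which loci share a seed, bases 2 to 8, in capitals; they are those of RefSeq, 5′ to 3′, and are shown for the loci that passed the 2-fold test.
miR-200a-3p: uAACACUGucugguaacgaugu
miR-200b-3p: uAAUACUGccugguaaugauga
miR-429: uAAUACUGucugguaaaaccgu
miR-205-5p: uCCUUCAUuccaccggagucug
miR-31-5p: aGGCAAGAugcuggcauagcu
miR-221-3p: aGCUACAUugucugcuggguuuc
miR-100-5p: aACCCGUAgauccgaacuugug
miR-125b-5p: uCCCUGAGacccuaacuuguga
let-7a-5p: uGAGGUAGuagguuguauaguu

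miR-200b-3p and miR-429 share 1 seed, and miR-200a-3p has another. Their 3 genes are neighbours on chromosome 1. The HCC70 libraries held 271, 260 and 322 counts at MIR200B and those of MDA-MB-231 7, 1 and 2, which is 2.47 ± 0.278 against 0.0282 ± 0.027 CPM (adjusted p = 6.45e-08). MIR200A had 466 counts in HCC70 and 4 in MDA-MB-231, and MIR429 had 1402 and 8. All 3 loci of this cluster were higher in HCC70, whereas the family's second cluster on chromosome 12, MIR141 and MIR200C, had 21 and 1 and 16 and 0 counts, too few to test. MIR205 had 168 and 0 counts and MIR31 97 and 0. MIR31 lies in a stretch of chromosome 9, described below, where 11 of 20 tested genes had no count in MDA-MB-231. In MDA-MB-231, MIR221 had 105, 157 and 177 counts against 1, 1 and 2 in HCC70 (adjusted p = 2.58e-07). MIR100, MIRLET7A2 and MIR125B1, loci on chromosome 11 with different seeds, had 72, 76 and 91 counts in MDA-MB-231 and none in HCC70. Of the other let-7a loci, MIRLET7A1 had 2 counts in each line and MIRLET7A3 had 36 in HCC70 and 9 in MDA-MB-231. MIR125B2, the other locus of miR-125b-5p, had 8 counts in HCC70 and 1 in MDA-MB-231.

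The E-box CACCTG, the letters bound by ZEB and SNAIL factors, was looked for on both strands in RefSeq promoters (GRCh38.p14, 250 bases before to 50 after the start). It was present in 19.6% of 12504 promoters of tested genes, in 25% of the 2655 of genes higher in HCC70 and in 18.2% of the 2386 of genes higher in MDA-MB-231. In the junction list 7 of 17 promoters held it, in the desmosome list 3 of 9 and among the epithelial regulators 5 of 15. The position is shown for 3 members picked from those that held it. The matches also include TJP1, which did not pass the 2-fold test. The 250 bases before the start are given 5′ to 3′ on the gene's strand with the E-box in capitals: PVRL4 at chr1:161089559-161089808 (minus strand), RAB25 at chr1:156060910-156061159 (plus strand) and DSC2 at chr18:31102422-31102671 (minus strand).
PVRL4: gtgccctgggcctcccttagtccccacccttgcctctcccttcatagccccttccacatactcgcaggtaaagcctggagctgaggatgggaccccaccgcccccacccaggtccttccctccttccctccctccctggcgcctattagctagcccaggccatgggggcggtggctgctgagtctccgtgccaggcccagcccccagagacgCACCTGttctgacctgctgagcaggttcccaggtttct
RAB25: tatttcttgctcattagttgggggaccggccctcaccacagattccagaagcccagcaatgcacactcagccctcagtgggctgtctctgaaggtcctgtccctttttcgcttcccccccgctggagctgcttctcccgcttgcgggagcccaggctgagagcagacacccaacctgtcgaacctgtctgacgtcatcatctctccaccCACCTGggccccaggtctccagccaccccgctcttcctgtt
DSC2: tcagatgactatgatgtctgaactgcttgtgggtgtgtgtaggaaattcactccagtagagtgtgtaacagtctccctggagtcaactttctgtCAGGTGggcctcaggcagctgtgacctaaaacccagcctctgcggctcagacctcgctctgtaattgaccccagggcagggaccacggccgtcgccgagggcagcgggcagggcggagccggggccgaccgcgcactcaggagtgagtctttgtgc
The E-box began 38 bases before the start in PVRL4, 41 in RAB25 and, on the opposite strand, 156 in DSC2, a desmosomal cadherin with 189 and 4.78 CPM in HCC70 and MDA-MB-231. The grainyhead letters AACCNGTT were in 1.54% of all tested promoters, in 1.81% and 1.42% of those higher in HCC70 and in MDA-MB-231, in none of the 15 of the epithelial regulators and in 1 of 17 of the junction list, that of CGN. The AP-1 letters TGANTCA were in 5.42%, with 6.37% and 7.21% of those higher in HCC70 and in MDA-MB-231. They were in 1 of 11 promoters of the ERK output and feedback list and in 0 of 23 of the mesenchymal structural list. The 4 sets of letters searched do not contain one another. A match shows letters, not binding, and the shares were not tested.

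Among mesenchymal structural genes, 20 of 29 tested were higher in MDA-MB-231 and 3 in HCC70 (median log2 fold change -3.39). CDH11, a cadherin of mesenchymal cells, had 122, 136 and 126 CPM in MDA-MB-231 and no count in HCC70, at least 14733-fold lower. NT5E (CD73) had 298 ± 29.2 against 1.24 ± 0.229 CPM, MYL9, a myosin light chain, 92.5 ± 3.51 against 0.965 ± 0.219 CPM and CAV1 (caveolin 1) 655 ± 35.8 against 62.5 ± 2.83 CPM. The collagen cross-linking enzymes LOX, LOXL2 and LOXL4 were 20.2-, 11.3- and 2202-fold higher. TPM2, TGFBI and TNC, a tropomyosin and a pair of matrix proteins, were 5.42-, 3.89- and 3.69-fold higher in HCC70. The smooth muscle gene TAGLN did not differ past either test (13 and 12.1 CPM), and neither did MSN (moesin) at 721 and 768 CPM.

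Collagen and matrix genes leaned the same way, with 16 of 27 higher in MDA-MB-231 and 4 in HCC70 (median log2 fold change -2.39). The basement membrane collagens COL4A1 and COL4A2, a head-to-head pair, had 49.3 ± 4.69 and 229 ± 43.9 CPM in MDA-MB-231 and 0.0378 ± 0.0278 and 0.337 ± 0.146 CPM in HCC70, while COL4A5 was 4.97-fold higher in HCC70. The 3 collagen VI genes were each higher in MDA-MB-231, COL6A1 25-fold, COL6A2 875-fold and COL6A3 526-fold. Collagen I was split between its chains: COL1A2 had 0.0335 and 38.8 CPM, and COL1A1 72.6 and 22.5 CPM. THBS1, thrombospondin 1, had 19.4, 21.2 and 18.1 CPM in HCC70 and 2884, 2650.4 and 2299 CPM in MDA-MB-231. BGN (biglycan) and FBLN1 (fibulin 1) were higher in HCC70, with 47.8 and 0.0516 CPM and 268 and 2.85 CPM. Each line thus had matrix genes that the other nearly lacked.

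Extracellular proteases and inhibitors were split: 15 of 29 were higher in HCC70 and 11 in MDA-MB-231, against 20.3% and 18.8% of all tested genes. The kallikreins KLK5, KLK6, KLK7, KLK8 and KLK10, peptidases of stratified epithelium, were all higher in HCC70; KLK5 had 48.9, 55.2 and 48.7 CPM there and no count in MDA-MB-231. So were SLPI and SERPINB5 (maspin), epithelial protease inhibitors, with 85.2 and 0.0108 CPM and 46.2 and 0.0536 CPM. The plasminogen activators were higher in MDA-MB-231: PLAT had 155 ± 10.5 against 1.35 ± 0.214 CPM, and PLAU 247 ± 6.51 against 7.76 ± 0.139 CPM, with exons that overlap another gene. TIMP1, TIMP2 and TIMP3, inhibitors of metalloproteinases, were 7.04-, 7.62- and 6434-fold higher in MDA-MB-231. Of 14 integrin genes, 5 were higher in HCC70 and 3 in MDA-MB-231, against 20.3% and 18.8% of all tested genes. ITGB6, an epithelial integrin chain, had 275 ± 16 against 0.123 ± 0.0253 CPM, and ITGA3, a laminin receptor chain, 276 ± 16.1 against 2223 ± 331 CPM, while ITGB1, the common β chain, had 1142 and 797 CPM.

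Of 26 basal and myoepithelial genes tested, some of them keratins already counted, 21 were higher in HCC70 and 3 in MDA-MB-231 (median log2 fold change 6.68). PROM1 (CD133) had 107 ± 10.0 against 0.0418 ± 0.0591 CPM, KIT 72.3 ± 5.38 against 0.0933 ± 0.0331 CPM and ID4 41.8 ± 2.22 against 0.128 ± 0.0542 CPM. The contractile and hormone-response genes MYLK and OXTR were higher in MDA-MB-231, with 24.4 and 92.6 CPM and 0.173 and 17.4 CPM. Luminal genes were also mostly higher in HCC70, 11 of 20 against 3. MUC1 had 1238 ± 69.3 against 52.2 ± 5.98 CPM, ERBB3 197 ± 10.6 against 5.64 ± 0.403 CPM and PRLR 117 ± 8.35 against 3.96 ± 0.55 CPM. HCC70 thus had basal and luminal genes side by side at the level of the whole culture, and whether single cells carried both was not tested. CA12 and BCL2 were higher in MDA-MB-231, 4.43- and 2.88-fold.

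Of 10 claudin-low and stem-like genes, 3 were higher in HCC70 and 5 in MDA-MB-231, against 20.3% and 18.8% of all tested genes. CD44, the hyaluronan receptor, had 280.3 ± 16.9 CPM in HCC70 and 752 ± 59.9 CPM in MDA-MB-231, and PROCR 0.43 ± 0.215 and 12.9 ± 0.202 CPM. The retinal dehydrogenases ALDH1A1 and ALDH1A3 went the other way, ALDH1A1 with 21.5 CPM against 3 counts and ALDH1A3 with 52.1 and 7.55 CPM. Of 13 S100 genes, calcium-binding proteins of a single family, 8 were higher in HCC70 and 4 in MDA-MB-231, against the same shares. S100A9 and S100A8, the calprotectin pair, had 37 ± 2.42 and 2.69 ± 0.658 CPM in HCC70 and no count in MDA-MB-231, S100A14 had 190.3 and 0.139 CPM, and S100A4 was 17.6-fold higher in MDA-MB-231.

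**Figure D2:**
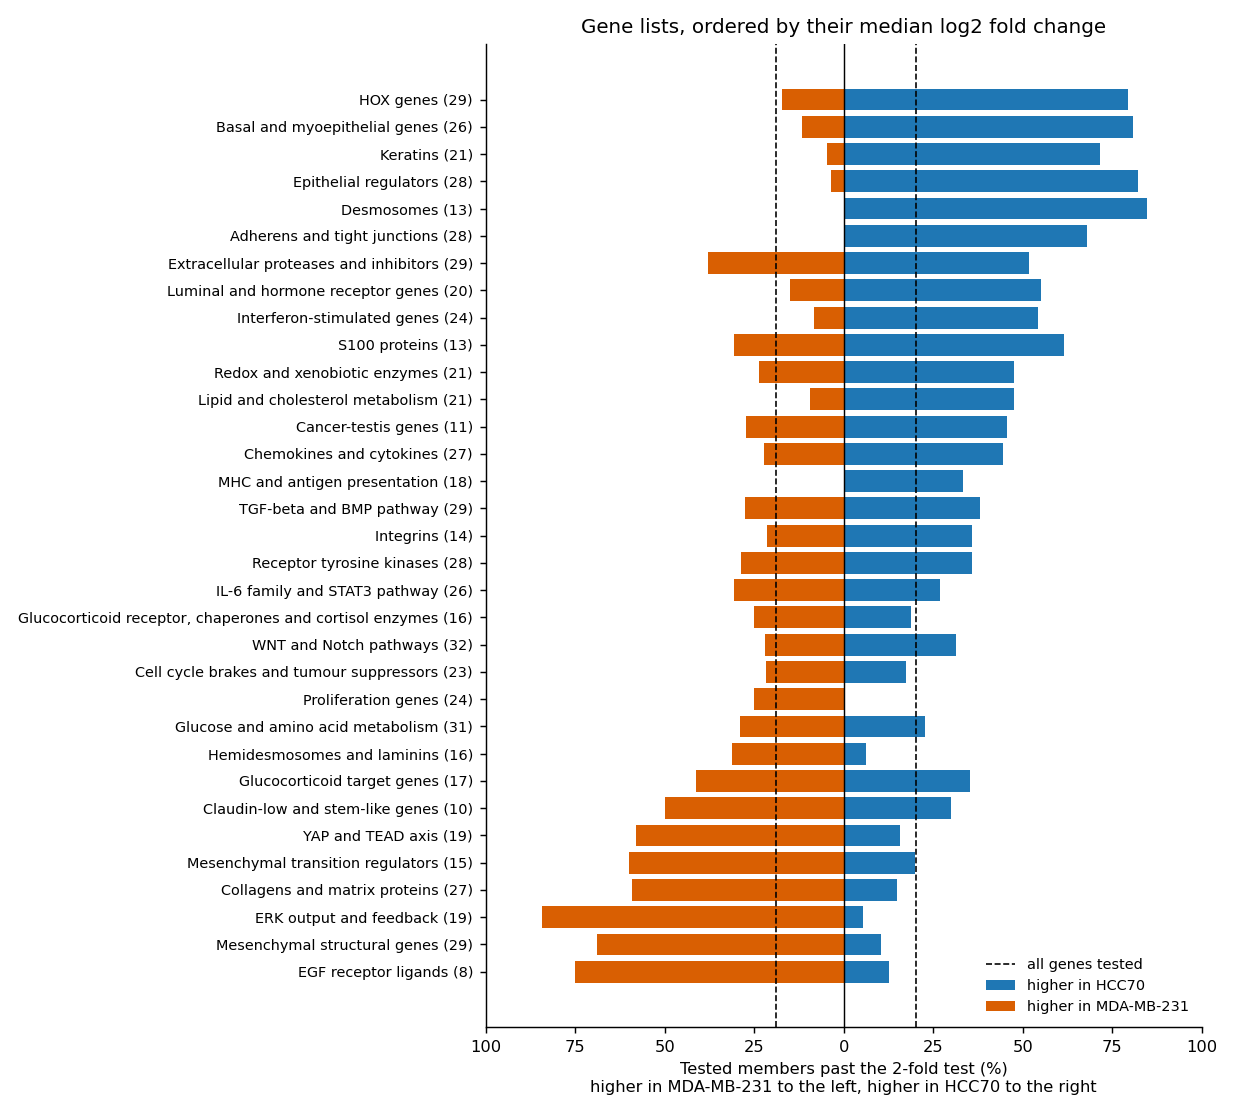
Share of the tested members of each gene list (number in brackets) that passed the 2-fold test, to the right where higher in HCC70 and to the left where higher in MDA-MB-231; dashed lines are the shares over all tested genes, 20.3% and 18.8%, and lists with fewer than 8 tested members are not drawn. HOX genes, desmosomes, junctions, keratins, epithelial regulators and basal genes lie to the right. The lists of EGF receptor family ligands, mesenchymal, ERK output and collagen genes lie to the left.

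**Figure D3:**
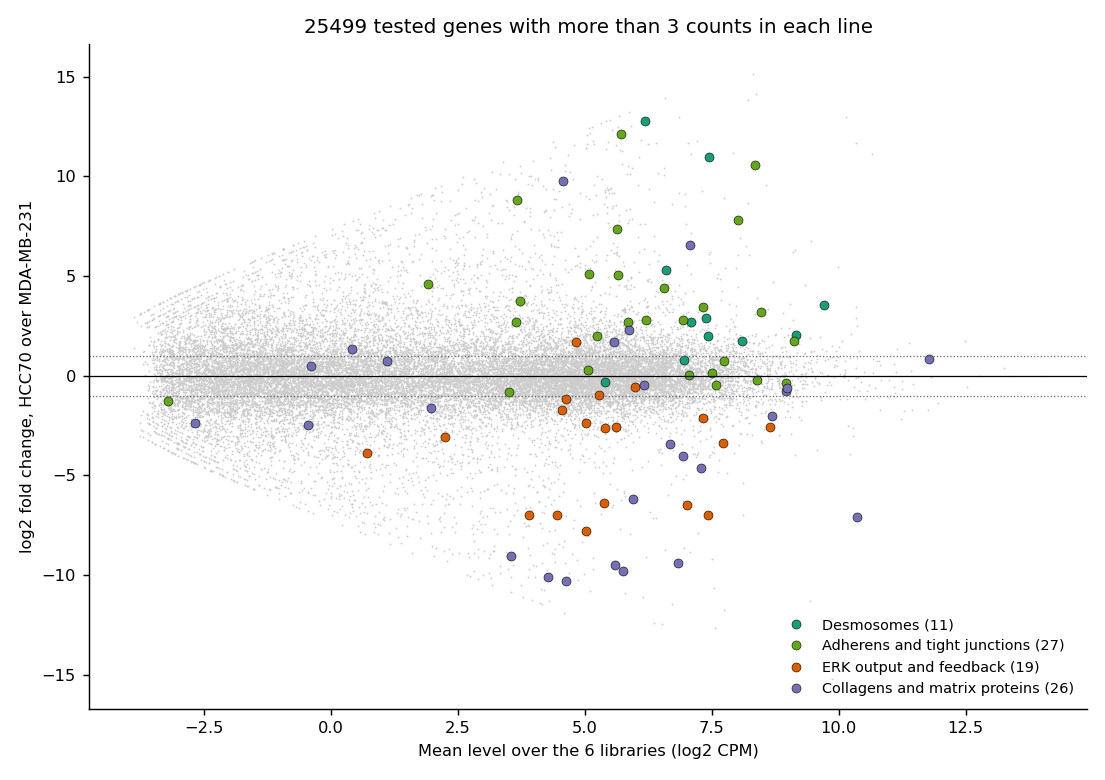
Fold change (log2, HCC70 over MDA-MB-231) against mean level (log2 CPM) for the 25499 tested genes with more than 3 counts in each line (grey), with 4 lists in colour; dotted lines are 2-fold. Desmosome and junction genes spread upward from 0 and ERK output genes downward, with EGR1 the 1 ERK output gene above the upper dotted line.

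Ligands of the EGF receptor family and genes downstream of ERK, the kinase at the end of that pathway, were higher in MDA-MB-231, although EGFR itself passed neither test. Of 8 ligand genes, 6 were higher in MDA-MB-231 and 1, EGF, in HCC70 (median log2 fold change -3.82). NRG1 had 78.5, 78.9 and 75.5 CPM in MDA-MB-231 and no count in HCC70, at least 8928-fold lower. HBEGF had 42 ± 2.18 against 1.79 ± 0.299 CPM, AREG 30.6 ± 1.43 against 2.05 ± 0.262 CPM and TGFA 83.7 ± 4.85 against 25.6 ± 0.459 CPM. EGF had 6.19 ± 0.342 CPM in HCC70 and 1.41 ± 0.195 CPM in MDA-MB-231.

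Of 19 ERK output and feedback genes, 16 were higher in MDA-MB-231 and 1 in HCC70, against 18.8% and 20.3% of all tested genes, and the median log2 fold change was -2.60. The phosphatase gene DUSP6, which switches ERK off, had 0.914, 1.14 and 0.919 CPM in HCC70 and 79.8, 82.2 and 84.4 CPM in MDA-MB-231, 82.8-fold apart (log2 -6.37 ± 0.11 SE, adjusted p = 1.44e-11). DUSP4 had 255 ± 24.8 against 2.85 ± 0.399 CPM, the feedback inhibitor SPRY4 65.3 ± 3.15 against 0.287 ± 0.111 CPM, and the ETS factors ETV1 and ETV5 were 124- and 127-fold higher. CCND1 (cyclin D1) was 5.97-fold higher. The 2-fold call of SPRY2 was lost under 6 of 19 alternative fits, among them DESeq2, limma voom and leaving out HCC70 replicate 2 or 3. The immediate early gene EGR1 went the other way, with 41.5, 40.8 and 48.3 CPM in HCC70 and 15.9, 13 and 11.8 CPM in MDA-MB-231, and MYC and SPRED2 did not pass the 2-fold test.  

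The YAP pathway, in which the coactivators YAP1 and WWTR1 (TAZ) drive genes through TEAD factors, had 11 of 19 members higher in MDA-MB-231 and 3 in HCC70 (median log2 fold change -1.35). Of its target genes, CTGF (CCN2) had 149, 142 and 149.8 CPM in MDA-MB-231 and 0.31, 0.163 and 0.321 CPM in HCC70, CYR61 (CCN1) 540.2 ± 55.5 against 12.9 ± 0.378 CPM, and F3, tissue factor, 434 ± 28.5 against 14.8 ± 0.359 CPM. ANKRD1 had 124 ± 10.4 CPM in MDA-MB-231 and 2 counts in HCC70. The coactivators differed less and in opposite directions, with 171 and 258 CPM for YAP1 and 195 and 81.6 CPM for WWTR1. TEAD1 was 5.71-fold higher in MDA-MB-231 and TEAD2 6.01-fold higher in HCC70. The TEAD letters GGAATG were in 11.4% of the promoters of tested genes, with 11% and 13.1% of those higher in HCC70 and in MDA-MB-231. In this list 4 of 14 promoters held them, those of YAP1, PTPN14, ANKRD1 and LATS2, and the share was not tested. ANKRD1 held them 220 and 128 bases before its start, in capitals in the 250 bases of RefSeq before it at chr10:90921088-90921337 (GRCh38.p14, minus strand).
ANKRD1: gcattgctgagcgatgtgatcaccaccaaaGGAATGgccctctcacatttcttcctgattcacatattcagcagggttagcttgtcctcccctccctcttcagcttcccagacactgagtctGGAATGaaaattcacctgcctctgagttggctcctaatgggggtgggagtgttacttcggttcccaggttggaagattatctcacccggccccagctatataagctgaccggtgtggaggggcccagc

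**Figure D4:**
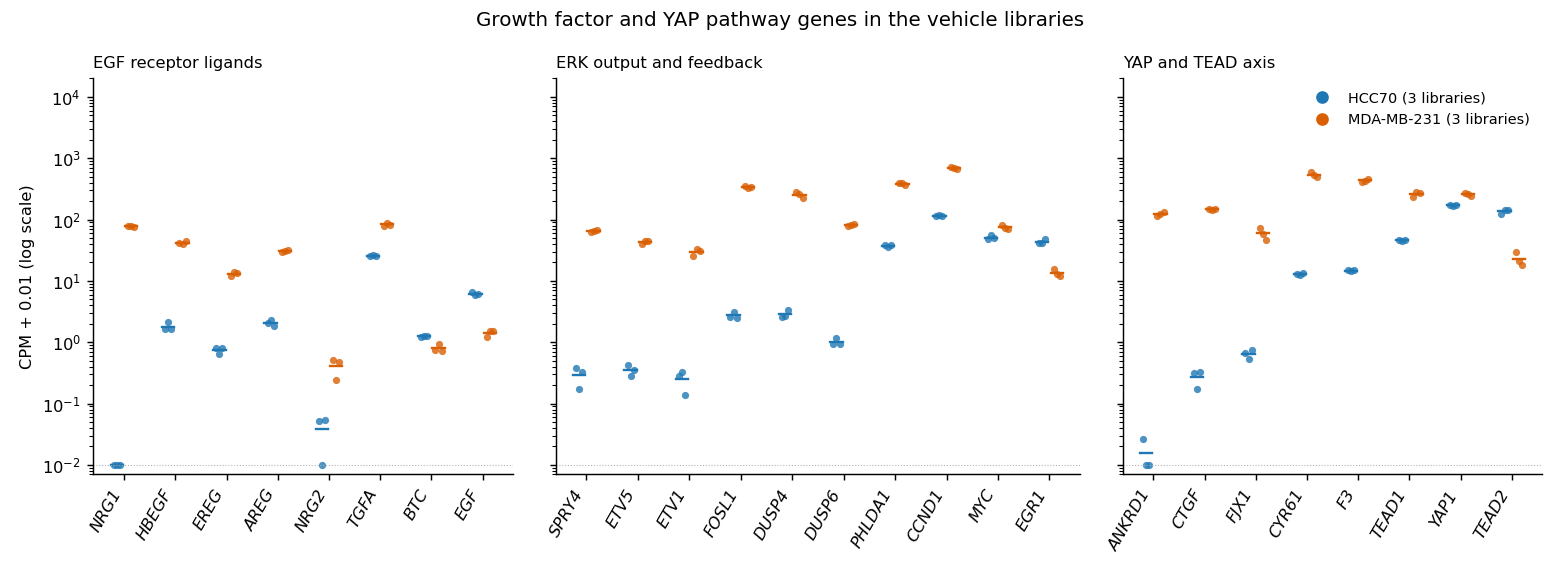
Level of EGF receptor family ligands, ERK output and YAP pathway genes in each of the 6 vehicle libraries (points) with the mean of each line (bars). Levels are CPM plus 0.01 on a log axis. The dotted line is a count of 0. MDA-MB-231 lies higher for all drawn genes apart from BTC, EGF, EGR1 and TEAD2.

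Among 28 receptor tyrosine kinases, 10 were higher in HCC70 and 8 in MDA-MB-231, against 20.3% and 18.8% of all tested genes. Besides AXL, MERTK (0.0549 and 13.8 CPM), FGFR1 (29.3 and 281 CPM), EPHA2 (103 and 802 CPM) and INSR (3.35 and 39.9 CPM) were higher in MDA-MB-231. KIT and ERBB3, given above, PDGFRA (6.2 and 0.0587 CPM), EPHB6 (171 and 20.7 CPM) and the collagen receptor DDR1 (872 and 167 CPM) were higher in HCC70. MET had 139.8 and 276 CPM and did not pass the 2-fold test. Members of a family differed in direction: FGFR2 and FGFR4 were higher in HCC70 and FGFR1 in MDA-MB-231, and EPHB3 and EPHA1 were higher in HCC70 and EPHA2 in MDA-MB-231.

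TGF-β and BMP pathway genes were split, 11 of 29 higher in HCC70 and 8 in MDA-MB-231, against 20.3% and 18.8% of all tested genes. The ligands TGFB1 and TGFB2 had 42.2 and 119 CPM and 11.3 and 112 CPM, and the receptors TGFBR1, TGFBR2 and TGFBR3 were 7.81-, 2.91- and 133-fold higher in MDA-MB-231. BMP4 had 249 ± 11.1 against 0.631 ± 0.162 CPM and its family's antagonist FST (follistatin) 33 ± 0.558 against 0.0433 ± 0.0168 CPM, also higher in MDA-MB-231. The BMP target genes ID1, ID2 and ID3 were in contrast 5.14-, 21.4- and 11-fold higher in HCC70, together with SMAD6 (12.8 and 4.0 CPM) and BMP7, which had 0.854 ± 0.162 CPM there and no count in MDA-MB-231. BMP4 and the ID genes thus differed in opposite directions.

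In the WNT and Notch pathways, 10 of 32 were higher in HCC70 and 7 in MDA-MB-231, against 20.3% and 18.8% of all tested genes. The list's median log2 fold change was -0.031, against -0.036 over all tested genes. The receptor NOTCH3 had 2938, 3055 and 3723 CPM in HCC70 and 2.16, 1.33 and 0.929 CPM in MDA-MB-231, 2194-fold apart (adjusted p = 1.65e-07). The Notch target genes HEY2 and HES1 had 22.7 and 0.020 CPM and 62.3 and 7.37 CPM, and the ligand JAG2 191 and 37.3 CPM, while JAG1 and NOTCH2 did not pass the 2-fold test at 119 and 133 CPM and 415 and 355 CPM. NOTCH1 had 429.6 and 143 CPM. Its 2-fold call was lost under 8 of 19 alternative fits. Among these were DESeq2, a GC content and length offset (log2 fold change 1.14) and leaving out HCC70 replicate 2 or 3 or MDA-MB-231 replicate 2. On the WNT side, the secreted inhibitor DKK1 had 269 ± 9.03 CPM in MDA-MB-231 against 0.582 ± 0.105 CPM in HCC70, and the receptor FZD2 71.2 ± 22.9 against 1.21 ± 0.11 CPM. WNT5A was 249-fold higher in HCC70. LEF1, a nuclear factor of the pathway, had 2.38 ± 0.229 CPM in MDA-MB-231 and no count in HCC70, and its relative TCF7 was 14.6-fold higher in HCC70. AXIN2, a common read-out of the pathway, did not differ past either test (3.22 and 3.15 CPM).

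The glucocorticoid receptor gene NR3C1, the target of the steroid used elsewhere in the study, had 60.1, 53.8 and 56.7 CPM in HCC70 and 117, 138 and 127 CPM in MDA-MB-231, both in vehicle. The groups did not overlap, and the level was 2.24-fold higher in MDA-MB-231 (log2 -1.16 ± 0.09 SE, adjusted p = 4.09e-07 for any difference). Whether the fold exceeds 2 was not settled: the adjusted p was 0.0307 in the 2-fold test, and the call was lost under 10 of 19 alternatives, among them leaving out HCC70 replicate 2 or 3 or MDA-MB-231 replicate 2, with a log2 value between -1.16 and -1.04 where lost. Of 16 genes for the receptor, its chaperones, cofactors and cortisol enzymes, 3 were higher in HCC70 and 4 in MDA-MB-231, close to the 20.3% and 18.8% of all tested genes; the latter count was 2 without HCC70 replicate 2 or 3 or MDA-MB-231 replicate 2, and 1 in DESeq2. HSD11B2, the enzyme that inactivates cortisol, had 31.1 ± 1.43 against 0.75 ± 0.221 CPM, NR3C2, the mineralocorticoid receptor, 7.77 ± 0.202 against 2.12 ± 0.233 CPM and the coactivator NCOA2 117 ± 3.85 against 16.8 ± 2.36 CPM. FKBP5 did not pass the 2-fold test (35.4 and 57.1 CPM).

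Of 17 known glucocorticoid target genes, 6 were higher in HCC70 and 7 in MDA-MB-231, against 20.3% and 18.8% of all tested genes. TSC22D3 (GILZ) had 156, 148 and 154 CPM in HCC70 and 6.35, 5.85 and 5.13 CPM in MDA-MB-231, a 26.4-fold difference (adjusted p = 6.37e-11). SGK1, a kinase induced by the same receptor, went the other way with 4.71, 7.53 and 4.59 and 126, 132 and 145 CPM, 23.9-fold apart. KLF9 (20.9 and 2.21 CPM) and CEBPD (15.1 and 4.54 CPM) were higher in HCC70, and DUSP1 (2.62 and 16 CPM), ERRFI1 (71.1 and 407 CPM) and PDK4 (0.911 and 3.11 CPM) in MDA-MB-231. PER1 did not differ past either test (16.8 and 13.6 CPM).

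STAT3, the study's second factor, had 187, 198 and 185 CPM in HCC70 and 127, 145 and 139.5 CPM in MDA-MB-231, 1.39-fold higher in HCC70 (adjusted p = 3.05e-04 for any difference) and not past the 2-fold test. Of 26 IL-6 family and STAT3 pathway genes, 7 were higher in HCC70 and 8 in MDA-MB-231, against 20.3% and 18.8% of all tested genes. Its ligands LIF, IL11 and IL6 were higher in MDA-MB-231. LIF had 36.1 ± 2.63 against 2.79 ± 0.22 CPM, IL11 24 ± 4.93 against 0.756 ± 0.199 CPM, and IL6, whose exons overlap another gene, 2.22 ± 0.0298 against 0.0631 ± 0.0431 CPM. The shared receptor chain IL6ST (gp130) was 5.0-fold higher there too. The kinases JAK1 and JAK2 were 3.02- and 4.98-fold higher in HCC70, as was the inhibitor PIAS3, with 259 and 91.4 CPM. SOCS2 and SOCS3, feedback inhibitors, were higher in MDA-MB-231, with 0.0233 and 13.2 CPM and 11.6 and 32.6 CPM, and BCL3 and BCL6 were 4.21- and 4.55-fold higher in HCC70.

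Interferon-stimulated genes were mostly higher in HCC70, 13 of 24 against 2 (median log2 fold change 1.48). OAS1 had 24.2 ± 0.709 against 0.762 ± 0.135 CPM, IFI44L 14.5 ± 0.257 against 0.294 ± 0.0478 CPM, MX1 58.5 ± 4.51 against 10.4 ± 0.23 CPM and IRF9 65.2 ± 2.05 against 8.82 ± 1.05 CPM. IFIT1 and IFIT3 were the members higher in MDA-MB-231, 2.74- and 3.09-fold, and ISG15 did not differ past either test (23.3 and 24.4 CPM). Of 18 antigen presentation genes, 6 were higher in HCC70 and 0 in MDA-MB-231, against 20.3% and 18.8% of all tested genes. Both directions together made up 33.3% of this list, under the 39.1% of all tested genes. B2M, the light chain of MHC class I, had 901 and 295 CPM and HLA-C 575 and 215 CPM. The 2-fold call of HLA-B was lost under 6 of 19 alternative fits, among them DESeq2, limma voom and leaving out MDA-MB-231 replicate 3. With a GC content and length offset the calls of HLA-B, HLA-C and HLA-F were lost, at a log2 fold change of 0.98, 1.06 and 1.08. Among chemokines and cytokines, 12 of 27 were higher in HCC70 and 6 in MDA-MB-231, against 20.3% and 18.8% of all tested genes. CX3CL1 had 114 ± 6.82 against 5.56 ± 1.25 CPM, CXCL16 149 ± 7.96 against 5.15 ± 0.704 CPM and TNFSF10 (TRAIL) 121 ± 5.36 against 17.2 ± 1.18 CPM. CSF1, the macrophage growth factor, had 382 ± 67.2 CPM in MDA-MB-231 against 13.4 ± 0.803 CPM in HCC70, and the receptor CXCR4 had 8.93 ± 0.819 CPM against 3 counts.

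HOX genes, which keep a record of position along the body axis, were mostly higher in HCC70, 23 of 29 tested, with 5 higher in MDA-MB-231 and a median log2 fold change of 6.70, or 6.05 with genes without a count at their lower bound. HOXA2 to HOXA10 had no count in MDA-MB-231, although they were low in HCC70, from 0.349 CPM for HOXA4 to 12 CPM for HOXA3; HOXA6 and HOXA7 overlap other exons. HOXC10, HOXC11, HOXC12 and HOXC13, with 26.1, 14.6, 9.65 and 24 CPM in HCC70, had none either, and neither did HOTAIR, the noncoding gene between them (10.5 ± 0.223 CPM in HCC70). MDA-MB-231 had its own members: HOXD4 (3.82 ± 0.0675 CPM) and HOXD1 (1.58 ± 0.134 CPM) had no count in HCC70, HOXA13 had 1.23 ± 0.188 CPM against 2 counts, and HOXB9 was 15.3-fold higher. Neighbours in the HOXB cluster differed in direction, with HOXB2 to HOXB6 higher in HCC70 apart from HOXB4, which did not pass (0.742 and 0.524 CPM). The 2-fold call of HOXB8 was lost under 7 of 19 alternative fits. Among these were DESeq2, limma voom, a GC content and length offset and leaving out HCC70 replicate 1 or MDA-MB-231 replicate 2 or 3.

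A stretch of the short arm of chromosome 9 held few or no reads in MDA-MB-231. CDKN2A, which encodes the cell cycle inhibitor p16 and the p53 regulator ARF, had 403, 453 and 409.7 CPM in HCC70 and no count in MDA-MB-231, at least 50086-fold lower, and CDKN2B (p15) had 81.9, 88.7 and 85.9 CPM and none. In gene order between KIAA1797 (FOCAD) and ELAVL2, 11 of 20 tested genes had no count in MDA-MB-231 and 13 had at most 3 counts, while none was without counts in HCC70. PTPLAD2, KLHL9 and IFNE had 47.9, 55.2 and 1.4 CPM in HCC70 and 0 counts in MDA-MB-231. MTAP, a purine salvage enzyme next to CDKN2A, had 80.2 ± 1.5 CPM and 4 counts. KIAA1797 at the edge was 32.3-fold higher in HCC70 and still had 2.02 ± 0.0482 CPM in MDA-MB-231. Inside the stretch, the processed pseudogenes KHSRPP1 and RP11-370B11.1 had 374 and 1040 counts in MDA-MB-231; such copies can take reads of a parent gene elsewhere. DNA copy number was not measured here.

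**Figure D5:**
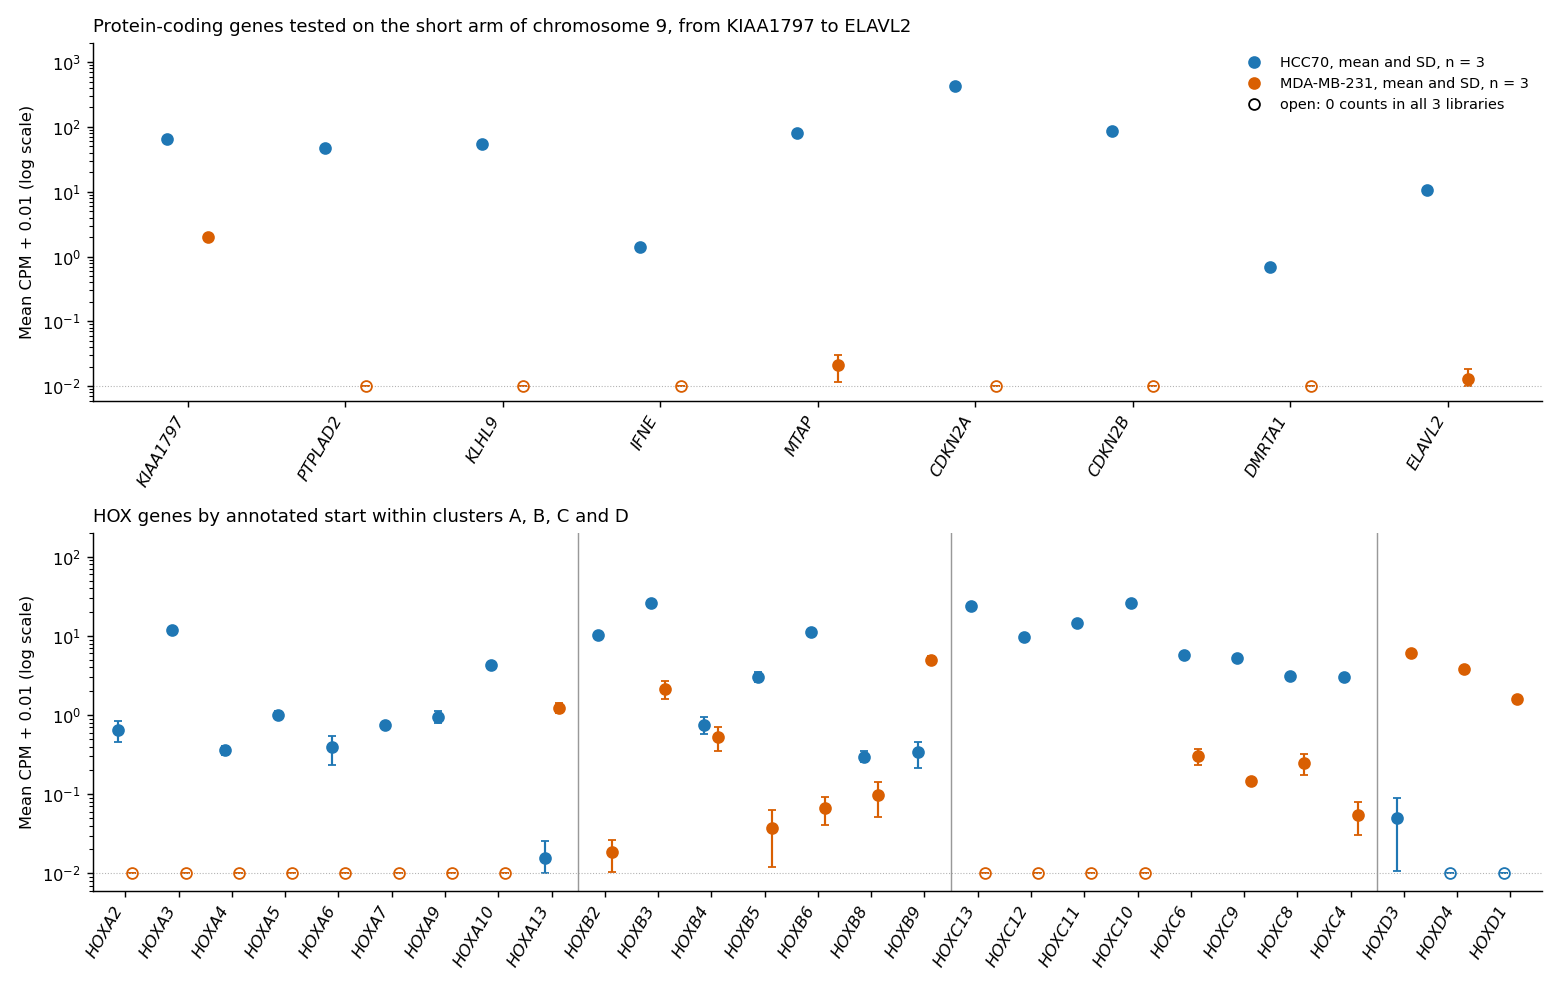
Mean CPM plus 0.01 on a log axis, with SD over 3 libraries, of protein-coding genes in their annotated order: 9 on the short arm of chromosome 9 (top) and 27 HOX genes (bottom). Open circles mark 0 counts in all 3 libraries of a line; they stand for MDA-MB-231 at CDKN2A and its neighbours, at HOXA2 to HOXA10 and at HOXC10 to HOXC13, and for HCC70 at HOXD4 and HOXD1.

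Of 23 cell cycle brakes and tumour suppressors, 4 were higher in HCC70 and 5 in MDA-MB-231, shares close to the 20.3% and 18.8% of all tested genes. CDKN2A, CDKN2B and MTAP, given above, were 3 of the 4. RB1 had 43.7 and 86.5 CPM and CDKN1A (p21) 54.2 and 61.1 CPM, neither past the 2-fold test, while CCND3 was 2.68-fold higher in MDA-MB-231 and NF1 2.83-fold higher in HCC70. Of 24 proliferation genes none was higher in HCC70 by the 2-fold test and 6 were higher in MDA-MB-231 (median log2 fold change -0.19). This makes 25% of the list, against 39.1% of all tested genes. The count for MDA-MB-231 was 3 without HCC70 replicate 2 or 3 or MDA-MB-231 replicate 2, and 3 in DESeq2. At an adjusted p under 0.05 for any difference, 5 were higher in HCC70 and 12 in MDA-MB-231, and at that level MKI67 had 375 and 577 CPM and MCM2 253 and 131 CPM. AURKA, a mitotic kinase, was 3.09-fold and CCNB1 2.6-fold higher in MDA-MB-231.

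Genes with reads in 1 line and no count in the other were few. Of 17010 genes of at least 1 CPM in HCC70, 141 had no count in MDA-MB-231. Of 16853 genes of at least 1 CPM in MDA-MB-231, 161 had none in HCC70. At 20 CPM or more, genes without a count in the other line were 18 of 7954 and 24 of 7740. In HCC70 they included, beside genes named above, CALML5 (125 ± 12.2 CPM), CASP14 (69.4 ± 3.46 CPM) and IVL, involucrin (22.7 ± 2.71 CPM), all genes of epidermal differentiation, the ion transport regulator FXYD3 (91.5 ± 6.58 CPM), the transcriptional coactivator EYA2 (71.5 ± 3.88 CPM), the chemokine CXCL17 (37.4 ± 0.748 CPM) and the neural transcription factor SIM1 (23.6 ± 1.41 CPM). Near-absent in MDA-MB-231 were also the phospholipase PLA2G2A (351 ± 9.98 CPM against 3 counts) and the aminopeptidase ANPEP (640.4 ± 37.2 CPM against 6 counts). In MDA-MB-231 they included DLC1, a GTPase-activating protein (109 ± 3.0 CPM), LPAR1, a receptor for lysophosphatidic acid (69 ± 3.73 CPM), the matrix protease ADAMTS9 (28.1 ± 2.8 CPM) and its relative ADAMTSL1 (40.7 ± 3.16 CPM), the hedgehog pathway factor GLI2 (38.4 ± 10.4 CPM) and the cystatin CST1 (34.8 ± 1.34 CPM). XAGE1A, a cancer-testis gene, had 60.6 ± 3.9 CPM, but XAGE1A to XAGE1E are near-identical copies that can split or share reads. PRAME, another such antigen, was the HCC70 counterpart, with 73.1 ± 2.02 against 0.0224 ± 0.0389 CPM.

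ECI2, a peroxisomal and mitochondrial enzyme of fatty acid oxidation, had 97.3, 104 and 110.2 CPM in MDA-MB-231 and no count in HCC70. Its tested neighbours C6orf201, RP3-400B16.4 and RP3-400B16.1 had none in HCC70 either, with 0, 0 and 0 counts there and 9809, 276 and 102 in MDA-MB-231, and exons of ECI2 overlap those of another gene. The flanking genes PRPF4B and CDYL were present in both lines, at 85.6 and 155 CPM and 33.3 and 57.9 CPM. The genes without counts thus lay between genes that had reads in HCC70.

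Runs of neighbouring genes past the 2-fold test were counted in annotated order, where 20.3% and 18.8% of all tested genes pass in each direction. There were 286 runs of at least 4 consecutive tested genes that were all higher in HCC70, with 1627 genes in them, and 246 such runs with 1291 genes for MDA-MB-231. Runs can hold overlapping or antisense genes whose reads cannot be told apart, and the number of runs was not tested. Keratin genes made up a run of 19 genes on chromosome 12, KRT5 and KRT6A among them, and a run of 11 on chromosome 17. The protocadherins are cell surface cadherins, and those of the α and γ clusters share exons within their cluster. On chromosome 5 they formed 1 run of 25 genes over the α and β clusters, with a highest mean of 13.7 CPM. A further run of 20 genes lay over the γ cluster there, with a highest mean of 120.0 CPM. A run of 17 genes on chromosome 2 held the UGT1A family, glucuronidating enzymes that share their last exons, so that its members cannot be told apart by such counts. The 5 kallikreins KLK5 to KLK9 stood next to each other on chromosome 19 with at most 3 counts each in MDA-MB-231. The longest runs higher in MDA-MB-231 had 14 genes. One of 12 genes on chromosome 19 held pregnancy-specific glycoproteins such as PSG1, a family of near-identical genes, with a highest mean of 6.31 CPM.

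Metabolic genes differed in both directions, and the medium, which differs between the lines, cannot be told apart from the line. Of 31 glucose and amino acid genes, 7 were higher in HCC70 and 9 in MDA-MB-231, against 20.3% and 18.8% of all tested genes. PHGDH, the first enzyme of serine synthesis, had 429.6, 397 and 459 CPM in HCC70 and 0.707, 0.96 and 1.0 CPM in MDA-MB-231, 482-fold apart, and PSAT1, the next enzyme, was 2.94-fold higher in HCC70. The lactate transporters differed in direction: SLC16A1 (MCT1) had 112 and 0.35 CPM, and SLC16A3 (MCT4) 70.7 and 556 CPM. Both lactate dehydrogenase chains were higher in MDA-MB-231, with 352 and 2151 CPM for LDHA and 4.66 and 203 CPM for LDHB. The glucose transporters SLC2A1 and SLC2A3 were 4.68- and 241-fold higher in MDA-MB-231, and GLUL and ASS1, of glutamine and arginine synthesis, 7.48- and 50.8-fold higher in HCC70.

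Of 21 lipid and cholesterol genes, 10 were higher in HCC70 and 2 in MDA-MB-231, against 20.3% and 18.8% of all tested genes. Their median log2 fold change was 1.15. The regulators SREBF1 and SREBF2 were 3.1- and 8.8-fold higher in HCC70 and the cholesterol enzymes SQLE and HMGCS1 19.1- and 5.04-fold. Of 21 redox and xenobiotic genes, 10 were higher in HCC70 and 5 in MDA-MB-231, against the same shares. The aldo-keto reductase AKR1C3 had 271 and 55.1 CPM and the drug exporter ABCG2 0.186 and 24.1 CPM, while TXNRD1, thioredoxin reductase, was 3.62-fold higher in MDA-MB-231. AKR1C1 and AKR1C2 were also higher in HCC70 but are close copies of AKR1C3.

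Among the most abundant transcripts, ACTB had 17104, 16762 and 15547 CPM in HCC70 and 18458, 16201 and 14668 CPM in MDA-MB-231, and GAPDH 10909, 11394 and 10662 and 11707, 10496 and 10907 CPM, and neither differed past either test (adjusted p = 0.982 and 0.947 for any difference). The groups overlapped for both. Their companions did differ: ACTG1, the second cytoplasmic actin, had 869.7 and 3957 CPM and the chaperone HSPA8 2208 and 5750.2 CPM, while EEF1A1, the elongation factor, was 3.38-fold higher in MDA-MB-231 together with its processed copies EEF1A1P5 and EEF1A1P6, which can take its reads. FLNA and ENO1 did not pass the 2-fold test.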

How the data were processed

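The 6 vehicle libraries of polyA-selected RNA, 3 of HCC70 and 3 of MDA-MB-231, were used, and 6 other per-sample columns of the same table were not. The authors deposited raw counts per gene; the submitters' processing notes name the build hg19 and the tools bedtools, Cufflinks (1.3.0) and TopHat (1.4.1), whose roles are not given in the sources used here. Libraries were not stranded, so reads of overlapping genes cannot be told apart.

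The counts were fitted with edgeR 4.0.16 (R 4.3.3): filterByExpr with a minimum count of 10 left 27038 of 51838 genes, 13362 being at 0 in all 6 libraries; TMM scaling and quasi-likelihood tests followed, with glmTreat for the 2-fold test and Benjamini-Hochberg adjustment at 0.05 over all tested genes. The scripts were tested on simulated data. Alternatives used limma 3.58.1, DESeq2 1.42.0, other scalings and filters, a GC content and length offset, a replicate term and leaving out each library. GC content, length, gene order and exon overlap came from the annotation provided, sequences from RefSeq (GRCh38.p14).

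The members and gene lists were chosen with earlier results of these data known. Named genes were, per direction, the 20 with the largest fold among those past the 2-fold test with at least 20 CPM in the higher line and libraries that do not overlap, the 10 most abundant genes of each line, NR3C1, STAT3, and in each list the 5 with the largest fold in each direction and the 2 most abundant that did not pass. Other members of the lists, the microRNA loci, gene runs and chromosome stretches were named after their values were seen. Some genes that this rule names are not reported here.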

Additional observations from a re-analysis of the deposited data

How the results depend on the processing

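Of the alternatives run, the filter of 5 CPM in 3 libraries, which tests fewer genes, moved the counts by more than 1.5 times: 5516 genes were then higher in HCC70 and 5870 in MDA-MB-231, 2566 and 2329 of them past the 2-fold test. Leaving out each library in turn gave 10064 to 10904 and 10379 to 10995 genes, and 5357 to 5784 and 4981 to 5191 past the 2-fold test, with 468 to 479 members of the lists against 472. Over 19 alternatives, 59 of 747 genes followed changed their 2-fold call, 31 by losing and 28 by gaining it, and 0 reversed; the cause was not tested. Of 72 list counts, 21 moved by more than 1.5 times under some alternative. The labels give both lines replicate numbers 1 to 3. The deviations of same-numbered libraries were correlated at -0.340, -0.104 and -0.300 over 14629 genes. These deviations also follow GC content, so the values cannot show whether same-numbered libraries were handled together. No library correlated best with its own number. With the replicate block, 10057 and 10192 genes were higher in HCC70 and in MDA-MB-231, 5331 and 4854 past the 2-fold test, and 463 list members. The replicate block together with a GC content and length offset was added after seeing the data. Depth limits genes at a few counts per line, such as MIR141 and MIR200C.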
